A study of Homo sapiens with 9 samples.

Results

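The guanylate-binding proteins GBP1 to GBP5 were read from every array probe whose deposited gene name is 1 of these 5 genes. There were 6 such probes, 1 each for GBP1, GBP2, GBP4 and GBP5 and 2 for GBP3, among 58201 probes and 43395 genes on the array. The arrays were hybridized with RNA of 3 stable lines of T47D, a hormone receptor positive human breast cancer cell line, and each line was measured on 3 single-colour Agilent arrays. T47D-PA6 carries a vector with the full-length PTH-AS, a long noncoding RNA transcribed downstream of the parathyroid hormone gene. T47D-PA5 carries an incomplete PTH-AS that lacks a part of its 5′ side, and T47D-VC1 carries the empty vector. All 3 lines were selected with G418 after transfection of the same pTARGET backbone, and each is 1 selected clone, so an insert cannot be told apart from other differences between clones. The sources do not say whether the 3 arrays of a line came from separate cultures, so the p-values measure the spread between these arrays, which may be technical.

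Guanylate-binding proteins are large GTPases of the dynamin superfamily that are known as some of the most strongly interferon-inducible proteins of human cells. They hydrolyse GTP, assemble into coats on bacteria and on the vacuoles that pathogens occupy, and there bring in the inflammatory caspase CASP4. GBP1, GBP2 and GBP5 end in a motif to which a lipid is attached, which anchors them to membranes, whereas GBP3 and GBP4 lack it. In epithelial cells they are best known as products of interferon gamma, through the transcription factor IRF1 and interferon-stimulated response elements.

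The 6 probes lie on chromosome 1 within 254 kb (hg19, coordinates as deposited) and all are on the minus strand. The GBP3 probes A_23_P51487 (chr1:89472549-89472608) and A_21_P0010536 (chr1:89476589-89476648) come first, followed by those of GBP1 (A_23_P62890, chr1:89518789-89518848), GBP2 (A_23_P85693, chr1:89575896-89578160), GBP4 (A_24_P45446, chr1:89647736-89647795) and GBP5 (A_23_P74290, chr1:89726387-89726446). Each probe has 60 bases. That of GBP2 covers 2265 bp of the genome, so it crosses a splice junction. Exons and untranslated regions of hg19 were not used here. Below are the probe of GBP2, whose signal carried a difference between lines, and the probe A_21_P0010536 of GBP3, which was well above background on no array, as the deposited files give them.
GBP2 probe A_23_P85693: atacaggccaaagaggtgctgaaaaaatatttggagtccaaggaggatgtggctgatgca
GBP3 probe A_21_P0010536: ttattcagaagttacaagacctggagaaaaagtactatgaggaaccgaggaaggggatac

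Promoter sequences from RefSeq (GRCh38.p14) were matched for 3 of the 5 members, GBP1, GBP3 and GBP4, as windows of 300 bases with 250 before and 50 after the annotated start. The core of the interferon-stimulated response element, searched as GAAANNGAAA on both strands, was found once in each of these 3 windows, against 3.57% of 35116 windows of the same length, and not in those of the family members GBP6 and GBP7. In GBP4 it ran from base -4 to base 6, counted from the start as base 1. In GBP3 it ran from base 3 to base 12 and in GBP1 from base -127 to base -118. The core of the interferon gamma activated site, searched as TTCNNNGAA, was found in the GBP3 window, against 7.66% of windows, and not in those of GBP1 and GBP4. The sequences are shown because GBP4 is the member whose level separated T47D-PA6 from both other lines, and because GBP1 and GBP3 share the stretch around the motif. The capitals mark the response element core, read on the strand of the gene, and the windows are chr1:89198913-89199192 for GBP4, chr1:89065316-89065375 for GBP1 and chr1:89022845-89022904 for GBP3, all on the minus strand.
GBP4: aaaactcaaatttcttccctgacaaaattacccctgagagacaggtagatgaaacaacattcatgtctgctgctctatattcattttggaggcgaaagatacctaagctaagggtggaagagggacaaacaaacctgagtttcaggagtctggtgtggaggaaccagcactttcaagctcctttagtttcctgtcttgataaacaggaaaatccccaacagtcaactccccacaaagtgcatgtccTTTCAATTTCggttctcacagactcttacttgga
GBP1: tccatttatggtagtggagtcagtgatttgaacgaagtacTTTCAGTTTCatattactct
GBP3: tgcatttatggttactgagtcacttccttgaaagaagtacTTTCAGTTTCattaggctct
Over the 60 bases placed on the motif, GBP1 and GBP3 were identical at 46, and GBP1 and GBP4 at 20. A match describes these letters and says nothing of what binds there in these lines.

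Signals are given on the linear scale after quantile normalization of the background-subtracted intensities, and levels are not compared between probes. A probe was tested where it was well above background on all arrays of at least 1 line, which 2 of the 6 probes were, those of GBP2 and GBP4. The lowest signal that counted as well above background ranged from 9.59 to 15.2 over the 9 arrays. On each array, 44.0% to 48.0% of all probes passed this mark. The first replicate of each line shared a slide and an earlier scan run, and replicates 2 and 3 were on other slides of a later run, in which T47D-PA6 replicates 2 and 3 shared a slide with the third replicates of the other lines.

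GBP2, a lipid-anchored member, was at 28.1, 13.8 and 17.7 in T47D-VC1, at 49.5, 46.7 and 44.6 in T47D-PA5, and at 57.9, 38.5 and 38.3 in T47D-PA6. Both lines with a PTH-AS insert were above every vector control array, and the 2 insert lines overlapped each other. The probe was well above background on 2 of 3 vector control arrays and on all 6 others. GBP2 signal was highest in replicate 1 of every line, the replicate of the earlier scan run. The mean signal of the vector control was 19.0, that of T47D-PA5 was 46.9 and that of T47D-PA6 was 44.0, with SDs of 0.52, 0.08 and 0.34 on the log2 scale (n = 3 each).

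GBP4, which lacks the lipid anchor and is known to restrain the interferon regulator IRF7, was at 64.7, 57.4 and 69.9 in T47D-VC1, at 63.8, 84.3 and 77.7 in T47D-PA5, and at 107.1, 133.5 and 123.1 in T47D-PA6. All 9 signals were well above background. The 3 T47D-PA6 arrays were above all others, and T47D-PA5 overlapped the vector control. The mean signal of the vector control was 63.8, that of T47D-PA5 was 74.7 and that of T47D-PA6 was 120.7, with SDs of 0.14, 0.21 and 0.16 on the log2 scale (n = 3 each).

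GBP1, the best studied member and the one that begins the coat on bacteria, was at 2.73, 2.74 and 2.72 in T47D-VC1, at 2.75, 8.02 and 4.91 in T47D-PA5, and at 5.82, 10.6 and 16.1 in T47D-PA6. It was well above background on 1 array, T47D-PA6 replicate 3. Its vector control signals and that of T47D-PA5 replicate 1 are surrogate values, which the scanner software writes in place of a signal that is not above background, so their small spread is not a replicate error. The T47D-PA6 mean of 9.96 lay below the lowest signals that counted as well above background in T47D-VC1, so no fold is given.

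GBP3, a close relative of GBP1, was read by 2 probes. A_23_P51487 gave 3.24, 6.40 and 4.52 in T47D-VC1, 8.20, 4.37 and 8.82 in T47D-PA5, and 11.1, 13.9 and 8.12 in T47D-PA6, and was well above background on T47D-PA6 replicate 2 alone. A_21_P0010536, shown above, stayed between 2.97 and 4.73 on the 9 arrays, was well above background on none and held surrogate values on 6. GBP5, the lipid-anchored member linked to inflammasome assembly, was well above background on no array, with signals of 2.53 to 2.58 in T47D-VC1, 2.55 to 3.91 in T47D-PA5 and 3.09 to 6.60 in T47D-PA6. For GBP1, GBP3 and GBP5, a difference between lines was not measurable at these signals.

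**Figure D1:**
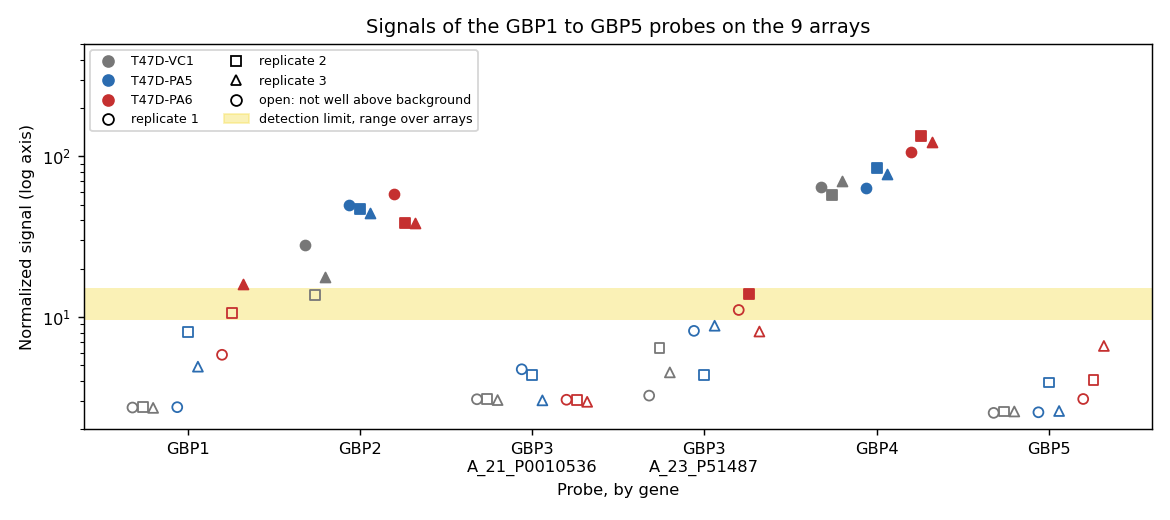
Normalized signal (log axis) of the 6 probes of GBP1 to GBP5 on the 9 arrays, with a point per array coloured by line, filled where well above background, and a band from 9.59 to 15.2 for the lowest signal well above background. GBP4 is filled on all arrays with T47D-PA6 on top, GBP2 is higher in both insert lines, and most points of the other 4 probes are open.

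T47D-PA6 over T47D-VC1 asked what changed with the full-length PTH-AS. GBP2 rose by 1.21 on the log2 scale (SE 0.26, limma adjusted p = 0.0235), a fold of 2.32 with a 95% interval of 1.54 to 3.50. GBP4 rose by 0.92 (SE 0.14, limma adjusted p = 0.00664), a fold of 1.89 with an interval of 1.51 to 2.37. The study called array increases above 2-fold, a mark that GBP2 passed by these folds and GBP4 did not. GBP2 entered the fit through the insert lines alone, and GBP4 through every line. Both were called higher, where 4.74% of the 20107 genes tested were called higher and 5.38% lower. Of all genes, 2.47% had a larger log2 fold change than GBP2 and 3.92% a larger one than GBP4. In bulk RNA, more cells with a transcript and more of it in each cell cannot be told apart. The GBP2 call was lost without T47D-VC1 replicate 2 or 3 or T47D-PA6 replicate 2 or 3 (adjusted p from 0.0552 to 0.0856), whereas that of GBP4 held without any 1 array (adjusted p up to 0.0331). Neither passed by the methods' test (adjusted p = 0.0567 for GBP4 and 0.170 for GBP2), which is the unpaired two-sided test between 2 groups that the study's statistics name, run per probe and with Benjamini-Hochberg adjustment added here. Those statistics also name an analysis of variance for multiple groups, which was not run here. GBP2 also did not pass in limma with the fit on these 2 lines alone (adjusted p = 0.0662) or with no filter on dim probes (0.0747). Under normexp background correction, which raises low signals, the log2 changes were 0.37 for GBP2 and 0.50 for GBP4, and both passed.

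T47D-PA5 over T47D-VC1 asked the same of the incomplete PTH-AS. GBP2 had a log2 fold change of 1.30 (SE 0.26, limma adjusted p = 0.0515), a fold of 2.47 with a 95% interval of 1.63 to 3.73, and did not pass. By fold alone it was above the study's 2-fold mark, as in T47D-PA6. The study set aside genes that were also altered in T47D-PA5. GBP4 had a log2 fold change of 0.23 (SE 0.14, limma adjusted p = 0.504) with an interval of -0.10 to 0.56. Of the 2 tested members, limma called 0, where 1.35% of genes were called higher and 0.298% lower. At an unadjusted limma p under 0.05 there was 1, GBP2, and the methods' test called 0 after adjustment. GBP2 passed in limma with the slide (adjusted p = 0.0184) or the replicate number (0.0200) as a block. It also passed without T47D-VC1 replicate 1 (0.0146) or T47D-PA6 replicate 1 (0.0326).

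T47D-PA6 over T47D-PA5 set both inserts against each other. GBP4 was higher in T47D-PA6 by 0.69 on the log2 scale (SE 0.14, limma adjusted p = 0.0206), a fold of 1.62 with a 95% interval of 1.29 to 2.03. GBP2 differed by -0.09 (SE 0.26, limma adjusted p = 0.876), and its interval of -0.68 to 0.50 does not show that the lines were alike. So 1 of 2 members was called higher, where 3.62% of genes were called higher and 6.03% lower. The GBP4 call was lost without T47D-PA5 replicate 3 (adjusted p = 0.0646), T47D-PA6 replicate 2 (0.0862) or T47D-PA6 replicate 3 (0.0790), and by the methods' test (0.0967).

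Both tested members were also set against each other within each array. GBP4 minus GBP2 on the log2 scale within an array was 1.20, 2.06 and 1.98 in T47D-VC1, 0.37, 0.85 and 0.80 in T47D-PA5, and 0.89, 1.79 and 1.68 in T47D-PA6. T47D-PA5 was below both other lines on every array. By an exact two-sided permutation test of 3 against 3 arrays, whose smallest p is 0.1, T47D-PA6 exceeded T47D-PA5 by 0.78 (p = 0.1), T47D-PA5 differed from T47D-VC1 by -1.07 (p = 0.1), and T47D-PA6 differed from T47D-VC1 by -0.29 (p = 0.5). These 3 comparisons share arrays, and none can pass after adjustment in this design. The test took no account of the scan run, and replicate 1, of the earlier run, had the lowest value of every line. Within the earlier and the later run, the difference was 0.52 and 0.91 between T47D-PA6 and T47D-PA5, -0.84 and -1.19 between T47D-PA5 and T47D-VC1, and -0.31 and -0.28 between T47D-PA6 and T47D-VC1.

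Within the earlier scan run, with 1 array a line, GBP2 exceeded its vector control signal by 1.04 in T47D-PA6 and by 0.82 in T47D-PA5 on the log2 scale. Within the later run, with 2 arrays a line, the same differences were 1.30 and 1.55. GBP4 in T47D-PA6 exceeded the vector control by 0.73 in the earlier run and by 1.02 in the later one. T47D-PA5 stood at -0.02 and 0.35 against T47D-VC1 for GBP4, and T47D-PA6 was above T47D-PA5 by 0.75 and 0.66. For GBP2, T47D-PA6 against T47D-PA5 stood at 0.23 in the earlier run and at -0.25 in the later one, so this difference changed sign. The GBP2 signs against the vector control and the GBP4 signs of T47D-PA6 were fixed beforehand. The arrays of the lines compared did not overlap there, so the split by run adds nothing to them.

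**Figure D2:**
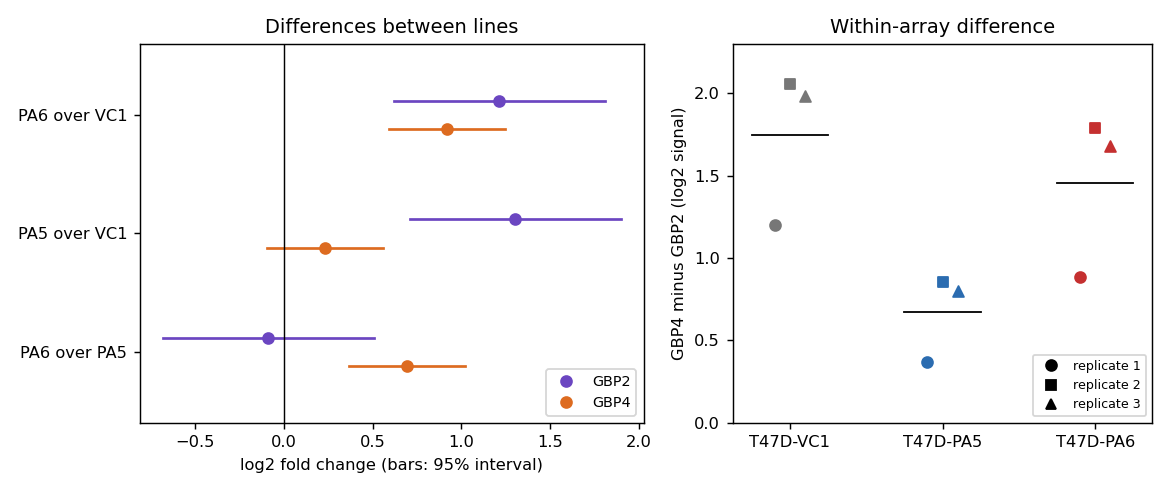
Left, log2 fold changes of GBP2 and GBP4 between lines with 95% intervals as bars. Right, GBP4 minus GBP2 log2 signal on each array, with a line at the mean of each line's 3 arrays. The GBP4 interval lies above 0 where T47D-PA6 is compared, the GBP2 interval where an insert line is compared with T47D-VC1, and T47D-PA5 has the 3 lowest within-array differences.

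The other family genes on the array gave no second reading of this pattern. GBP6 stayed between 2.63 and 2.70, and the 2 probes of the pseudogene GBP1P1 reached at most 3.34, with no array well above background. GBP7 was between 2.58 and 4.40 on 8 arrays and at 24.9 on T47D-PA5 replicate 1, the single array where it was well above background.

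Genes near the members were called lower or not at all. Within 1 Mb of the outermost probes, 10 other genes were tested, and in T47D-PA6 over T47D-VC1 0 were called higher and 2 lower, with a median log2 fold change of -0.20, against -0.03 over all genes tested. Over all genes, 4.74% were called higher and 5.38% lower. The 2 were KYAT3, a kynurenine aminotransferase (log2 fold change -0.63, SE 0.10, limma adjusted p = 0.00814), and lnc-GBP5-2, a noncoding transcript named by its place (-1.18, SE 0.17, limma adjusted p = 0.00516). At an unadjusted limma p under 0.05, 0 neighbours were higher. Besides these 2, GEMIN8P4 (log2 fold change -0.69, limma adjusted p = 0.181) and ZNF326 (-0.47, limma adjusted p = 0.116) were lower at that mark. In T47D-PA5 over T47D-VC1, limma called 0 of the 10, with a median of -0.10, and at an unadjusted p under 0.05 LRRC8D and ZNF326 were lower, and the methods' test also called 0. The shares of all genes called by limma there were 1.35% higher and 0.298% lower.

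**Figure D3:**
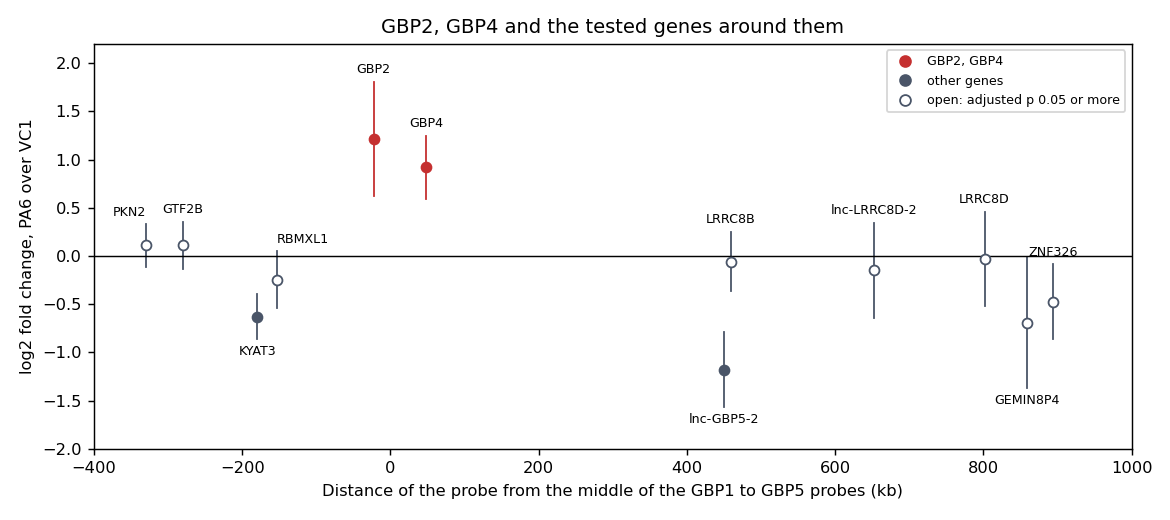
Log2 fold change of T47D-PA6 over T47D-VC1 with its 95% interval as a bar, against distance in kb from the middle of the GBP1 to GBP5 probes, for GBP2, GBP4 and the 10 tested genes within 1 Mb. GBP2 and GBP4 lie above 0, KYAT3 and lnc-GBP5-2 below, and the other genes have open points.

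Genes that act with guanylate-binding proteins in cell defence, which are caspases, inflammasome genes, apolipoproteins L and RNF213, were called higher for 5 of 10 tested members and lower for 0 in T47D-PA6 over T47D-VC1, with a median log2 fold change of 0.63. Over all genes, 4.74% were called higher and 5.38% lower. APOL6 rose by 3.47 (SE 0.32, limma adjusted p = 7.40e-04). CASP1, the inflammasome caspase, was well above background on 0 of 3 vector control arrays, and its mean of 45.6 in T47D-PA6 was at least 3.66-fold higher (limma adjusted p = 0.00263). It entered the fit through the insert lines alone, so that its call rests on the filter that let it in. Among the 9 members of the list well above background on all 9 arrays, 4 were called higher. APOL1, a lytic apolipoprotein, rose by 0.86 (SE 0.23, limma adjusted p = 0.0489). PYCARD, the inflammasome adaptor, rose by 0.68 (SE 0.09, limma adjusted p = 0.00370). CASP4, the caspase that GBP coats recruit, did not pass in T47D-PA6 (log2 fold change 0.68, SE 0.30, limma adjusted p = 0.184) or in T47D-PA5 (1.12, SE 0.30, limma adjusted p = 0.119). In T47D-PA5 over T47D-VC1, 2 of the 10 were called higher, with a median of 0.53, and 7 with the later scan run alone. The share of all genes called higher there was 1.35% in the main fit. With the later run alone, 5207 of 26172 probes were called in either direction, against 424 in the main fit. CASP1 in T47D-PA5, at a mean of 31.2, was at least 2.50-fold higher than in T47D-VC1 (limma adjusted p = 0.0227).

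The enzymes that attach and trim the lipid anchor of GBP1, GBP2 and GBP5, such as FNTB and RCE1, were called in neither direction for 6 of 6 in T47D-PA6 over T47D-VC1, with a median log2 fold change of -0.11. The partners FURIN, a protease that GBP2 and GBP5 inhibit, PIM1, a kinase, and SFN, which traps GBP1, were called for 0 of 3. Both counts are near the shares of all genes called, 4.74% higher and 5.38% lower. At an unadjusted limma p under 0.05, FNTA (log2 fold change 0.39, limma adjusted p = 0.0586) and FURIN (0.46, limma adjusted p = 0.0738) were higher, and the methods' test called 0 of these 9 genes. Of 5 related large GTPases tested, 1 was called, against the same shares of all genes. This was MX1, an antiviral GTPase, with a log2 fold change of 5.89 (SE 0.47, limma adjusted p = 5.15e-04), while its paralog MX2 stood at 0.32 (SE 0.20, limma adjusted p = 0.356).

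Of the interferon gamma signalling genes, 2 of 8 tested were called higher in T47D-PA6 over T47D-VC1 and 0 lower, with a median log2 fold change of 0.17. Over all genes, 4.74% were called higher and 5.38% lower. IRF1, the transcription factor best known for inducing guanylate-binding proteins, was at 42.0, 37.9 and 37.4 in T47D-VC1, at 38.3, 55.5 and 59.0 in T47D-PA5, and at 75.6, 136.5 and 124.1 in T47D-PA6. As for GBP4, its 3 T47D-PA6 arrays lay above all others, and T47D-PA5 overlapped the vector control. GBP2 did not share this order, since both insert lines lay above every vector control array. Whether IRF1 acts on either member was not tested. IRF1 rose by 1.48 in T47D-PA6 (SE 0.24, limma adjusted p = 0.00836), and had a log2 fold change of 0.36 in T47D-PA5 (SE 0.24, limma adjusted p = 0.538). SOCS1, a feedback inhibitor of cytokine receptors, rose by 0.83 (SE 0.19, limma adjusted p = 0.0307). The ligand gene IFNG was well above background on no array.

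Of the interferon gamma targets other than guanylate-binding proteins, 10 of 12 tested were called higher in T47D-PA6 over T47D-VC1 and 0 lower, with a median log2 fold change of 1.41. Over all genes, 4.74% were called higher and 5.38% lower. BATF2, a transcription factor, rose by 4.61 (SE 0.48, limma adjusted p = 0.00127). PSMB9 and PSMB8, subunits of the immunoproteasome, rose by 2.40 and 2.02 (SE 0.17 each, limma adjusted p = 4.05e-04 and 5.94e-04). HLA-DRA, an antigen-presenting chain, was well above background on 0 of 3 vector control arrays and on 3 of 3 in T47D-PA6, where its mean of 17.2 was at least 1.38-fold higher (limma adjusted p = 0.0112). It entered the fit through T47D-PA6 alone, so that its call rests on the filter that let it in. Of the 10 targets well above background on all 9 arrays, 8 were called higher. The chemokines CXCL9, CXCL10 and CXCL11 were well above background on no array. In T47D-PA5 over T47D-VC1, 2 of 12 were called higher, with a median of 0.76, and 10 with the later scan run alone. Among all genes, 1.35% were called higher in the main fit. With the later run alone, 5207 of 26172 probes were called in either direction, against 424 in the main fit.

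Of the interferon-related DNA damage resistance signature (IRDS), a set that the study took up from these same samples and that is therefore no independent evidence of direction, 8 of 8 were called higher in T47D-PA6 over T47D-VC1, with a median log2 fold change of 6.11. Over all genes, 4.74% were called higher. OAS1, IFI6 and ISG15 rose by 7.14, 6.63 and 6.34 (SE 0.58, 0.60 and 0.43, limma adjusted p = 5.20e-04, 7.13e-04 and 4.05e-04). OAS1 was well above background on 1 of 3 vector control arrays, where its mean was 13.4, so the size of its rise is uncertain. IFI44, well above background on 0 of 3 vector control arrays, was at least 137-fold higher (limma adjusted p = 7.40e-04). OAS1 and IFI44 entered the fit through the insert lines alone, so that their calls rest on the filter that let them in. Of the 6 IRDS genes well above background on all 9 arrays, 6 were called higher. The median of the 2 tested guanylate-binding proteins was 1.07 on the same scale, and says nothing of GBP1, GBP3 and GBP5, which were not tested. GBP2, like OAS1, was not well above background on every vector control array. In T47D-PA5 over T47D-VC1, 7 of 8 IRDS genes were called higher, with a median of 3.26, where 1.35% of all genes were called higher.

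**Figure D4:**
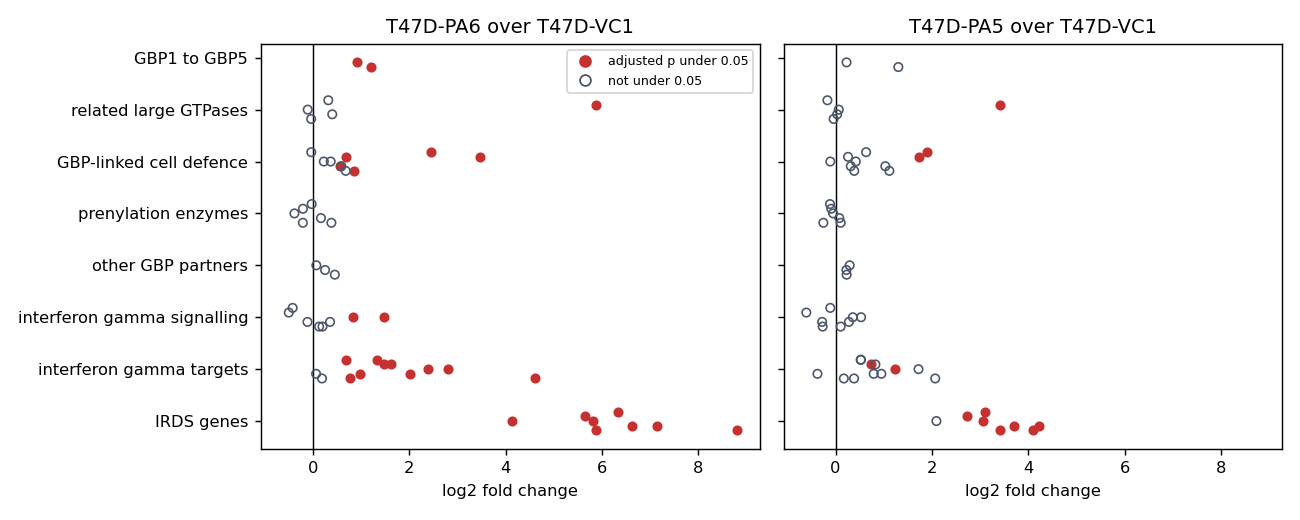
Log2 fold changes of the tested genes of 8 lists in T47D-PA6 and in T47D-PA5, each over T47D-VC1, with a point per gene that is filled where the limma adjusted p was under 0.05. The 2 tested guanylate-binding proteins lie in the range of the interferon gamma targets and below the IRDS genes, and prenylation enzymes lie around 0.

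The genes whose course over the 9 arrays was most like that of a member were found by the root mean square difference of log2 signals, each relative to its own mean in T47D-VC1, among 18249 genes well above background on all arrays. Nearest to GBP2 were CRYAB, a small heat shock protein (0.17), SECTM1, a transmembrane and secreted protein (0.22), and lnc-ABCD3-2 (0.24), against a median of 1.12 over all candidates. Their log2 fold changes over T47D-VC1 were 1.09, 1.42 and 1.15 in T47D-PA6, and 1.27, 1.102 and 1.36 in T47D-PA5. Nearest to GBP4 were NMI, an interferon-induced protein (0.12), NCCRP1, an F-box protein (0.12), and lnc-TTC21A-1 (0.13), against a median of 0.63. Theirs were 0.85, 0.80 and 0.83 in T47D-PA6 and 0.32, 0.18 and 0.35 in T47D-PA5. The arrays are shared by all these genes, and the values are a description.

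**Figure D5:**
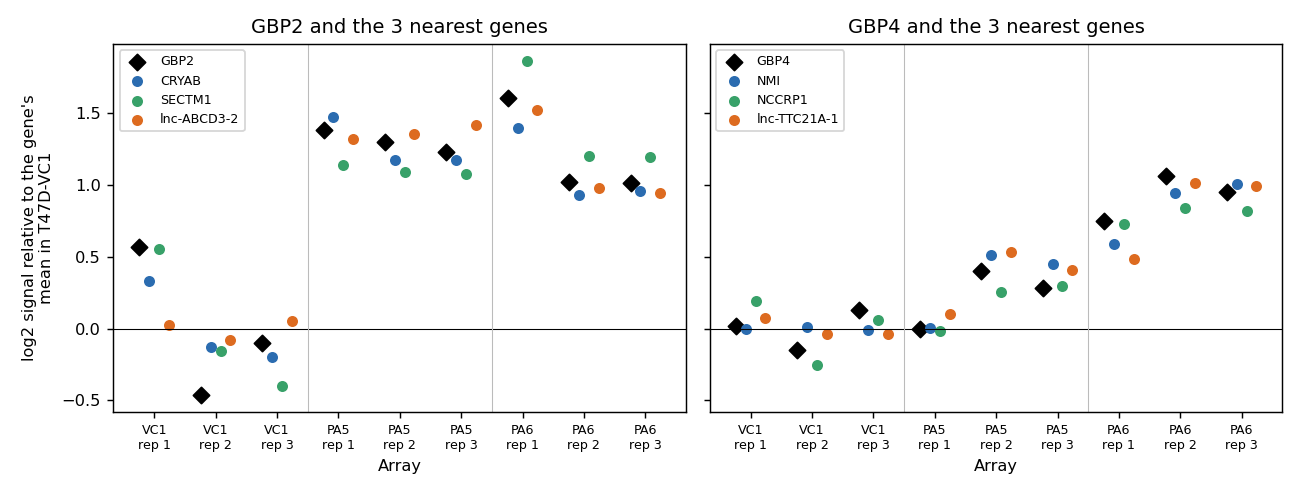
Log2 signal relative to each gene's own mean in T47D-VC1 on the 9 arrays, for GBP2 (left) and GBP4 (right), each with its 3 nearest genes. The points of GBP2 and its neighbours are high in T47D-PA5 and T47D-PA6 alike, and those of GBP4, NMI and NCCRP1 are highest in T47D-PA6, whereas those of lnc-TTC21A-1 overlap between T47D-PA5 and T47D-PA6.

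The label of the cells was read from luminal epithelial markers, which were well above background on all 9 arrays for 9 of 9 genes. Of these, 1 was called in T47D-PA6 over T47D-VC1, the progesterone receptor gene PGR (log2 fold change -1.07, SE 0.17, limma adjusted p = 0.00681). Over all genes, 4.74% were called higher and 5.38% lower. Of 7 markers of blood, endothelium and fibroblasts, 4 were tested, and CD3E, PECAM1 and COL3A1 were well above background on no array. The summed signal of the 4 ranged from 818 to 869 in T47D-VC1, from 683 to 1135 in T47D-PA5 and from 801 to 970 in T47D-PA6. CD14, a monocyte marker, rose by 1.80 in T47D-PA6 (SE 0.29, limma adjusted p = 0.00752), from 41.0 to 56.0 in T47D-VC1 to 101 to 218 in T47D-PA6, and COL1A1, a fibroblast collagen, fell by 0.50 (SE 0.10, limma adjusted p = 0.0200). PTPRC, the defining marker of leukocytes, had mean signals from 18.0 to 20.8 over the 3 lines, near the lowest that count as well above background. The part of other cell types in the GBP2 and GBP4 differences was not tested.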

How the data were processed

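RNA of 3 stable T47D lines was measured on 9 Agilent SurePrint G3 Human v3 8x60K arrays, 3 per line, after labelling in 1 colour from low RNA input. The deposited scanner files hold spot intensities of Feature Extraction, version 10.7.1.1 per the file headers and 9.5.1.1 per the labels, with hg19 coordinates. The processed signal is background-subtracted, and a signal not above background is replaced by a surrogate value. The authors also deposited a table of quantile-normalized intensity values on the linear scale, whose log2 values correlated with those computed here at 1.00 on each array. No array intensity gives a depth, and the number of arrays limits the precision.

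Control and outlier spots were left out, spots of a probe were averaged, and the log2 processed signals of 58201 probes were quantile-normalized. Probes well above background on all arrays of at least 1 line (26172) entered 1 fit in limma 3.58.1 (R 4.3.3) with lmFit, contrasts.fit and eBayes over the 3 lines, with 6 residual degrees of freedom. Benjamini-Hochberg adjustment ran over all tested probes with a threshold of 0.05. Gene counts used the brightest tested probe of each of 20107 genes. Symbols were updated through the RefSeq gene table (GRCh38.p14) by symbol (31127 probes), accession (3343) or synonym (496), and kept as in the files for 23235. The fit was tested on simulated data for T47D-PA6 over T47D-VC1 over 26172 probes, where 57 of 100 probes changed by 1 on the log2 scale and 86 of 100 changed by 2 were called. "At least" folds divide the brighter mean by the mean, over arrays, of whichever was higher, the dim probe or the lowest probe well above background.

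The members and gene lists were chosen with earlier results of these data known. Named were GBP1 to GBP5 with all probes, the other family genes, of each further list at most the 4 genes with the largest change in T47D-PA6 over T47D-VC1 among those past the threshold, and the 3 genes nearest to each tested member. CASP4, MX2, FNTA, FNTB, RCE1, the 3 partners, IFNG, the 3 chemokines, LRRC8D, ZNF326, GEMIN8P4, CD3E, PECAM1, COL3A1 and PTPRC were named outside this rule, after their values were seen. The interferon beta and lambda genes were named from the paper. PTH-AS itself was not analysed here. The study called array changes by fold, not by a test. The methods' test is the unpaired two-sided test of its statistics section, which names no arrays, with Benjamini-Hochberg adjustment added here. That section also names an analysis of variance for multiple groups, which was not run. Alternatives covered scaling, background correction, the dim-probe filter, blocks, the samples in the fit, the test and each array left out, plus the later scan run alone, chosen after seeing the data.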

Additional observations from a re-analysis of the deposited data

Results flagged for a closer look

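GBP4 differed between the insert lines: its log2 change over T47D-VC1 in T47D-PA6 minus that in T47D-PA5 was 0.692, by the limma contrast of both lines (adjusted p = 0.0206), with T47D-PA6 higher on 3 of 3 arrays. GBP7, which enters no comparison because no line had it well above background on all arrays, read 24.9 on T47D-PA5 replicate 1 against 2.61 to 2.64 on the 3 vector control arrays. Groups of 3 arrays were too small to look for a single array far from the rest.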

How the results depend on the processing

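Of the GBP probes called in T47D-PA6 over T47D-VC1 (2), 1 was called with no filter on dim probes, 1 among probes well above background on all 9 arrays (GBP2 was not among them), 1 with only the 2 lines compared, and 0 by the methods' test. Leaving out each array in turn gave 1 to 2. In T47D-PA5 over T47D-VC1 (0), 1 was called with the slide as a block, 1 with an intensity trend in the prior variance and 1 with the later scan run only, an alternative chosen after seeing the data, and leaving out each array gave 0 to 1. In T47D-PA6 over T47D-PA5 (1), 0 were called by the methods' test, and leaving out each array gave 0 to 1. GBP2 in T47D-PA6 over T47D-PA5 changed sign without T47D-PA6 replicate 2 or 3, at 0.0068 and 0.011 on the log2 scale, with values from -0.29 to 0.011 over the arrays left out. Between same-numbered replicates of different lines, departures from the line means correlated at 0.08 to 0.33 in 9 pairs, with 8 over 0.1. The replicates thus shared some structure, which the main fit left out. With the replicate number as a block, 2, 1 and 1 probes were called in the 3 comparisons, in the order above. The probe called in T47D-PA5 over T47D-VC1 was that of GBP2 (limma adjusted p = 0.0200). GBP4 was called in T47D-PA6 over T47D-VC1 under 20 of 21 alternatives (log2 values from 0.50 to 1.02, adjusted p from 0.00384 to 0.0567) and GBP2 under 13 of 20 (0.37 to 1.50, adjusted p from 0.00257 to 0.170). GBP2 in T47D-PA5 over T47D-VC1 was called under 6 of 20 (0.41 to 1.59, adjusted p from 0.00358 to 0.206), and GBP4 in T47D-PA6 over T47D-PA5 under 17 of 21 (0.39 to 0.78, adjusted p from 0.0129 to 0.0967). Without the filter on dim probes, no probe of GBP1, GBP3 or GBP5 passed in T47D-PA6 over T47D-VC1, the lowest adjusted p being that of GBP1 (0.0971), and surrogate values enter those fits. Over all probes, the counts called were 2762, 424 and 2593 in the same order, 644, 38 and 966 by the methods' test, and 9388, 5207 and 9033 with the later scan run only; the cause was not tested. By the methods' test in T47D-PA6 over T47D-VC1, 1 of 10 cell defence genes, 6 of 12 interferon gamma targets, 0 of 8 interferon gamma signalling genes and 0 of 10 neighbours were called, and in T47D-PA5 over T47D-VC1 it called 0 genes of these lists and 0 of 8 IRDS genes. Signals near background limit what GBP1, GBP3 and GBP5 can show.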
